A study of Aedes albopictus with 6 samples.

Results

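The genes described are the folding machinery in the ovary of *Aedes albopictus*, the Asian tiger mosquito: heat shock protein 70 (HSP70), HSP90, the DnaJ co-chaperones, the CCT chaperonin and prefoldin. They were chosen by gene description alone, by the words heat shock 70, heat shock cognate, heat shock protein 83 or 90, DnaJ, T-complex protein 1 and prefoldin, without the small heat shock proteins. The rule matched 107 rows, of which 3 were blank in all libraries, leaving 104 of the 23529 genes with values. By subfamily these were 30 HSP70, 6 HSP90, 38 DnaJ, 15 CCT and 13 prefoldin genes. The prefoldin genes include 2 described as unconventional prefoldin RPB5 interactor-like, which are not among prefoldin subunits 1 to 6. The wording also took 2 genes described as T-complex protein 11-like, which are no chaperonin subunits and are kept apart. No gene matched as a mitochondrial HSP60.

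RNA-seq was done on ovaries of 2 groups, Aalpi18529 overexpression (OE, n = 3 libraries) and control (n = 3). Aalpi18529 is a PIWI-interacting RNA (piRNA), a small RNA class that guides PIWI proteins, and the series' design text says it was supplied as mimics to ask how it acts on the ovary after a blood meal. The sources used here give no mimic dose, no treatment of the control females, no time after the meal and no number of females per library. The small RNA itself was not measured here, so the overexpression rests on the labels. It is also not stated that libraries came from separate females or pools, so p-values measure the spread between these libraries, which may be technical.

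Chaperones bind unfolded protein and release it folded or pass it on. HSP70 works in cycles of ATP binding and hydrolysis: DnaJ proteins deliver the client and start hydrolysis, and exchange factors such as the HSP70 protein 4 type (the HSP110 family) reset the cycle. HSP90, called heat shock protein 83 in flies and mosquitoes, takes over later folding steps of kinases and receptors, while prefoldin hands actin and tubulin to the ring-shaped CCT chaperonin. In insects, cognate HSP70s are made all the time, whereas HSP70 A1 and B2 are heat-inducible forms first named in *Anopheles*. In flies, HSP83 and its partners also take part in the piRNA pathway.

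The libraries held 15719412 to 16465531 estimated counts, and values below are CPM, counts scaled to 1 common library total with the TMM factors of edgeR. Counts are not divided by transcript length, since no transcript lengths were used here, so levels of different genes are not ranked as abundances. All 19 germline and ovary marker rows had counts, among them *vasa*, *oskar*, *nanos*, *aubergine* and vitellogenin receptor genes. A fall in the RNA of a cell type and a loss of its cells cannot be told apart in these bulk samples.

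The chaperone genes together made up 1.85% to 1.91% of all counts. Their summed level was 18839 ± 405 CPM with OE and 18930 ± 91.1 CPM in controls (SD, n = 3 each), and the groups overlapped. HSP70 genes supplied 36.5% of these counts, DnaJ genes 23.8%, CCT genes 17.9%, HSP90 genes 17.8% and prefoldin genes 3.62%. The sums of HSP70 (6804 ± 373 CPM with OE, 6974 ± 183 CPM in controls), HSP90 (3335 ± 123 and 3377 ± 37.1 CPM) and CCT (3376 ± 110 and 3370 ± 55.6 CPM) differed between groups by less than the larger SD of the pair. DnaJ genes summed to 4522 ± 40.2 CPM with OE and 4450 ± 76.6 CPM in controls, also less apart than the larger SD. Prefoldin genes summed to 703 ± 17.7 CPM with OE and 663 ± 30.2 CPM in controls, further apart than either SD. The prefoldin sum includes the RPB5 interactor-like genes, at 54.6 CPM with OE and 49.6 CPM in controls. In DnaJ, control 1 lay above OE libraries 1 and 2, and in prefoldin, control 3 lay above OE library 2.

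**Figure D1:**
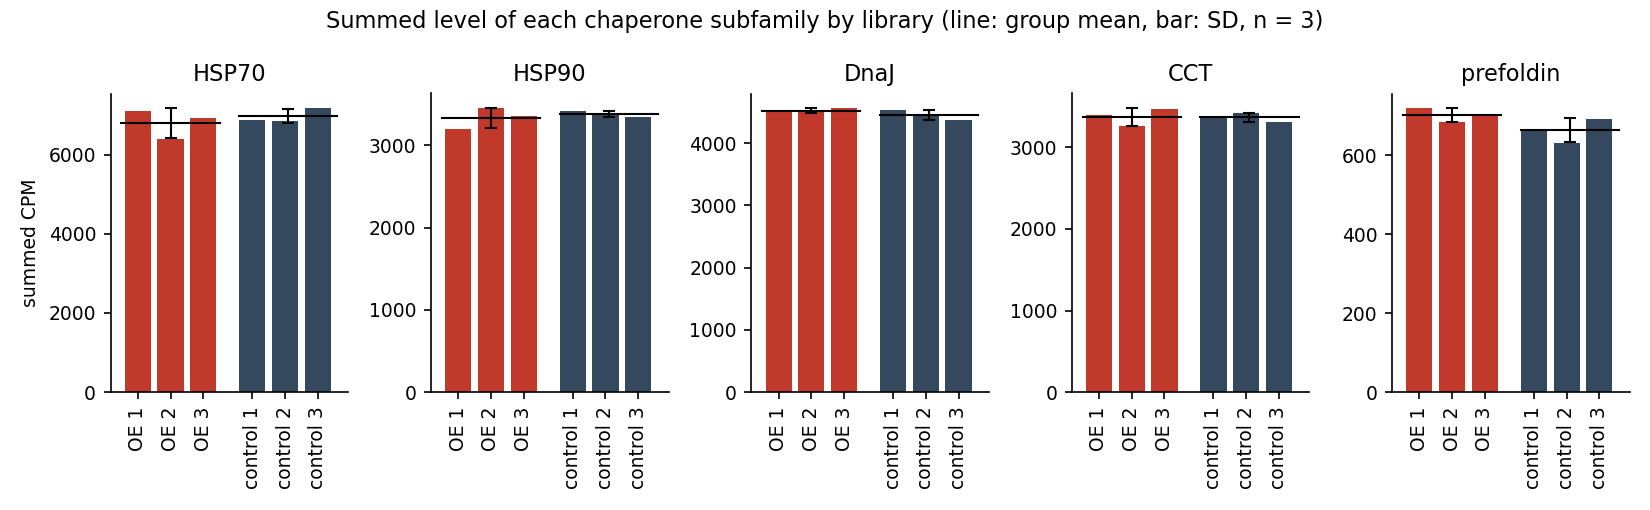
Summed CPM of the HSP70, HSP90, DnaJ, CCT and prefoldin genes in each OE and control library; bars are libraries, the line is the group mean and the error bar its SD (n = 3). The groups overlap in every subfamily, and prefoldin averages 703 against 663 CPM.

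No chaperone gene passed the test. Of the 104 genes, 88 had enough counts to be tested and 16 did not, with at most 40.52 counts in any library. None of the 88 reached a Benjamini-Hochberg adjusted p of 0.05 in edgeR's quasi-likelihood test over all 15540 genes tested, of which 0.0129% did, and the smallest adjusted p of a chaperone gene was 0.963. DESeq2 called none either, against 0.0652% of all genes. An unadjusted p under 0.05 was reached by 5 chaperone genes (5.68% of those tested), beside 4.92% of all genes. Of these, 2 were higher with OE, where 2.42% of all genes were, and 3 lower, where 2.5% were. The groups did not overlap in 10 chaperone genes (11.4%), beside 10.4% of all genes. OE was the higher group in 5 of them, where 5.25% of all genes were such, and the lower in 5, where 5.12% were. These shares of single genes are near the background. The median log2 fold change was 0.02 over the chaperone genes and 0.00 over all genes, and 77.3% of the chaperone genes moved by less than 0.2 on the log2 scale, beside 74.0% of all genes.

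**Figure D2:**
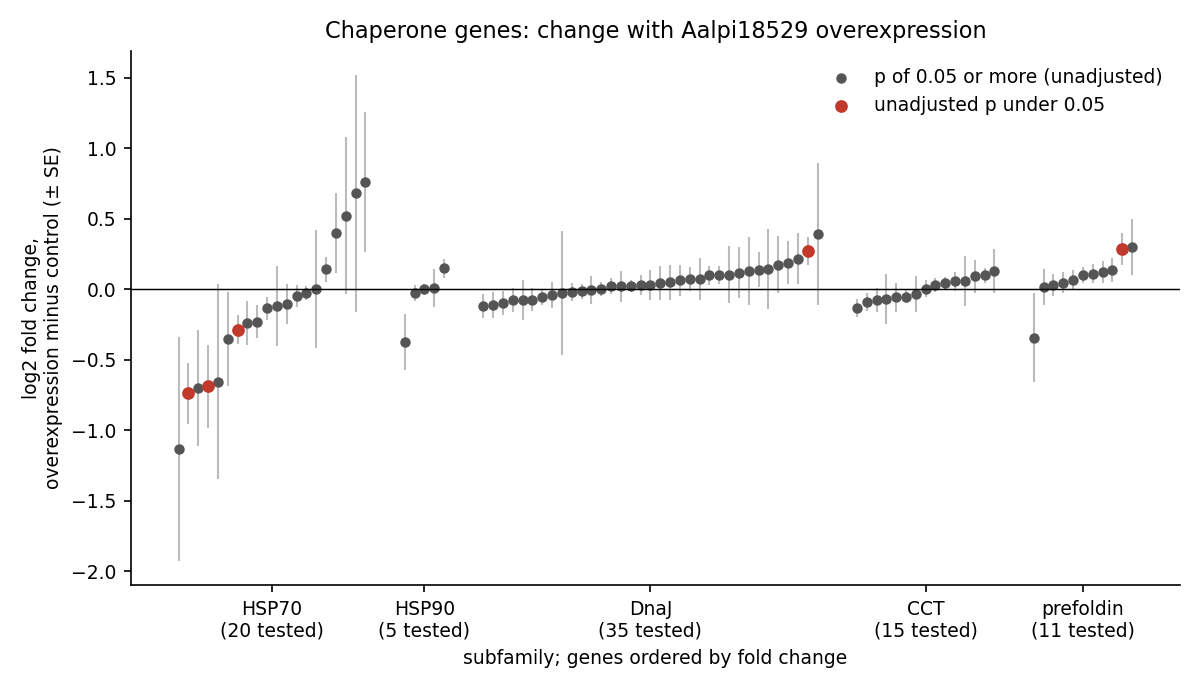
Log2 fold change (OE minus control) with its SE for each tested gene of the 5 subfamilies, ordered within the subfamily; red points have an unadjusted p under 0.05. CCT and DnaJ genes lie close to 0, with 100% of CCT and 91.4% of DnaJ genes within 0.2, while HSP70 genes spread from -1.13 to 0.76 with long error bars.

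The member with the most counts was an HSP70 cognate gene, a constitutive type by its description. LOC109425568, an HSP70 cognate 4 gene (scaffold NW_021837045.1, positions 113669825 to 113674311) encoding the general cytosolic HSP70, stood at 5506, 4891 and 5246 CPM in OE libraries 1, 2 and 3, against 5289, 5093 and 5570 CPM in controls 1, 2 and 3. It alone took 74.2% to 77.5% of the HSP70 counts of each library. The groups overlapped, and the gene had a log2 fold change of -0.03 ± 0.05 (SE, edgeR adjusted p 0.975). A second cognate 4 gene, LOC109429441, lies on the same scaffold (positions 114165541 to 114169681) and stood at 384 ± 67.8 CPM with OE and 414 ± 63.6 CPM in controls (SD, n = 3 each). The cognate 5 gene LOC109401240, the mitochondrial HSP70 type, stood at 265 ± 8.38 and 273 ± 29.7 CPM.

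The cognate 2 genes, of the constitutive type by description alone and with few counts, were the HSP70 genes whose groups did not overlap. LOC115256412 (scaffold NW_021838798.1, positions 43896103 to 43907884) had 1.75, 2.07 and 1.90 CPM in OE libraries 1 to 3, against 3.02, 3.09 and 3.42 CPM in the controls. Every OE library lay below every control. The fold change on the log2 scale was -0.74 ± 0.21 (SE). Its edgeR unadjusted p of 0.0083 was the smallest of the chaperone genes, and its adjusted p was 0.963. LOC115269375 (scaffold NW_021838552.1, positions 488506 to 499527) had 1.62, 1.27 and 1.12 CPM with OE, against 1.86, 1.85 and 2.81 CPM in controls, which gave a log2 fold change of -0.69 ± 0.29 (SE, edgeR adjusted p 0.963). LOC109427543 (scaffold NW_021838798.1, positions 43105172 to 43134178) had 5.60, 5.31 and 5.77 CPM with OE, against 7.09, 6.60 and 6.12 CPM in controls, and here too the groups did not overlap. Of the 20 HSP70 genes tested these 3 (15%) had no overlap between groups, beside 10.4% of all genes, or 5.12% with OE as the lower group. All 7 tested cognate genes had a negative log2 fold change (7706 of all 15540 genes did). Some of the 7 may share reads, so these signs are not independent.

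Since the estimated counts of these 3 genes carry decimals, reads may have been divided between them, and they were also summed and fitted together. The sum was 8.80 ± 0.157 CPM with OE and 12.0 ± 0.412 CPM in controls (SD, n = 3 each). Counting alone gives coefficients of variation of 10.1% for LOC109427543, 15.6% for LOC115256412 and 18.8% for LOC115269375. The narrow SDs of the sum may therefore understate its spread. Its library values were 8.96, 8.65 and 8.80 CPM with OE, against 12.0, 11.5 and 12.4 CPM in controls. Every OE library was therefore lower, with a log2 fold change of -0.44 ± 0.12 (SE). In the fit of all genes with copies joined by description (9696 features) its edgeR unadjusted p was 0.00523 and its adjusted p 0.950, so it did not pass. Muscle markers lay the same way: their 31 rows summed to 1111, 1139 and 1141 CPM with OE, against 1201, 1196 and 1220 CPM in controls, and no row was at 0 in all libraries. The 149 midgut marker rows summed to 228, 231 and 258 CPM with OE, against 264, 258 and 272 CPM in controls, with OE library 3 and control 2 nearly equal. Only 22 of the midgut rows had enough counts to be tested, and their median log2 fold change was -0.0003. For the 30 tested muscle rows the median was -0.09. The part of either list in the cognate 2 values was not tested.

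**Figure D3:**
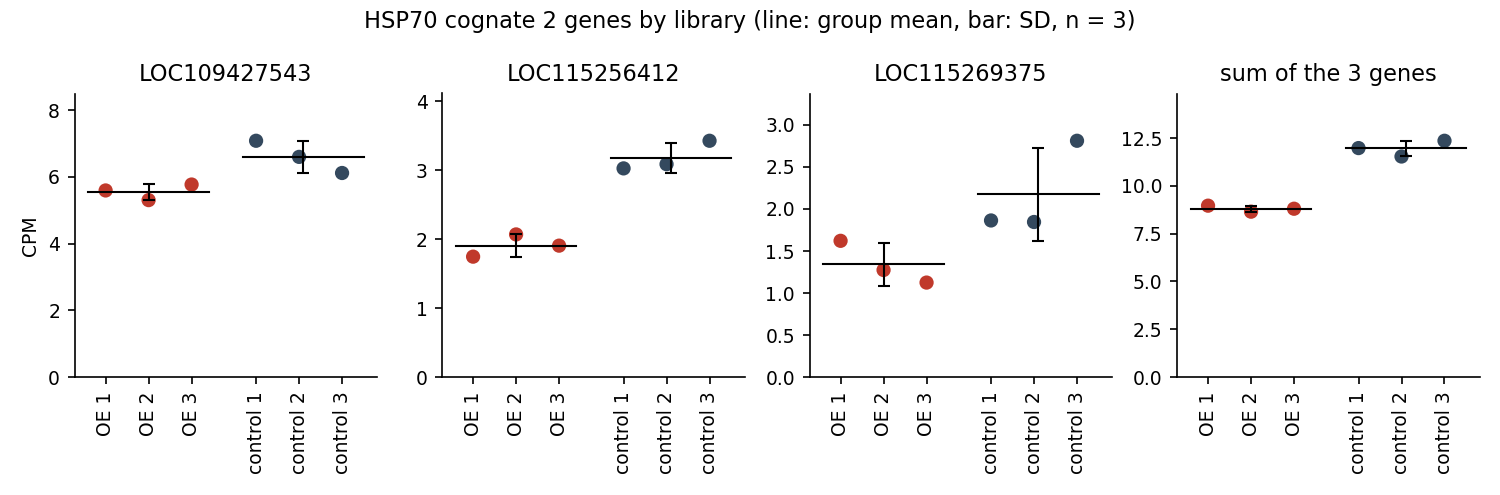
CPM of the 3 HSP70 cognate 2 genes and of their sum in each OE and control library; the line is the group mean and the bar its SD (n = 3). In each panel all OE libraries lie below all controls, for the sum at 8.80 against 12.0 CPM.

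HSP70 A1 and B2, the heat-inducible type by name alone, comprised 20 genes with values and most of their counts fell on 1 of them. By the deposited positions 10 lie on scaffold NW_021837822.1, 6 within 45737 bases on NW_021838321.1, 3 on NW_021838098.1 and 1 on NW_021838495.1. LOC109423611 (scaffold NW_021838321.1, positions 428214 to 430685) took 70.2% to 79.7% of their counts. It had 89.0, 86.6 and 90.7 CPM with OE, against 107, 87.6 and 97.6 CPM in controls, which gave a log2 fold change of -0.14 ± 0.08 (SE, edgeR adjusted p 0.963). The OE libraries were close to each other and control 2 lay among them. LOC115264117 (scaffold NW_021837822.1, positions 5184484 to 5186955) had 9.82, 19.3 and 17.2 CPM with OE, against 12.2, 14.8 and 8.13 CPM in controls. OE libraries 2 and 3 lay above every control and OE library 1 among them. The log2 fold change was 0.40 ± 0.29 (SE, edgeR adjusted p 0.963), 0.64 without OE library 1, 0.60 without control 2, 0.21 without OE library 2 and 0.19 without control 3. All 20 summed to 119 ± 9.21 CPM with OE and 125 ± 13.2 CPM in controls (SD, n = 3 each).

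The other 18 A1 and B2 genes each averaged under 3 CPM, and 10 of the 20 were too low to test. Their sum varied within each group rather than between groups. It was 12.9, 9.65 and 21.3 CPM in OE libraries 1, 2 and 3, against 16.6, 8.12 and 23.2 CPM in controls 1, 2 and 3. The 5 B2 genes alone summed to 0.510, 0.894 and 3.51 CPM with OE, against 1.29, 0.870 and 4.19 CPM in controls. Of the 13 such genes with a mean of at least 0.2 CPM, OE library 3 was the highest OE library in 12 and control library 3 the highest control in 8, and both held in 8. This count was made after the values were seen, and no share over all genes was taken. The copies may also share reads, so they do not count as separate genes. The labels do not say what the library numbers stand for.

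**Figure D4:**
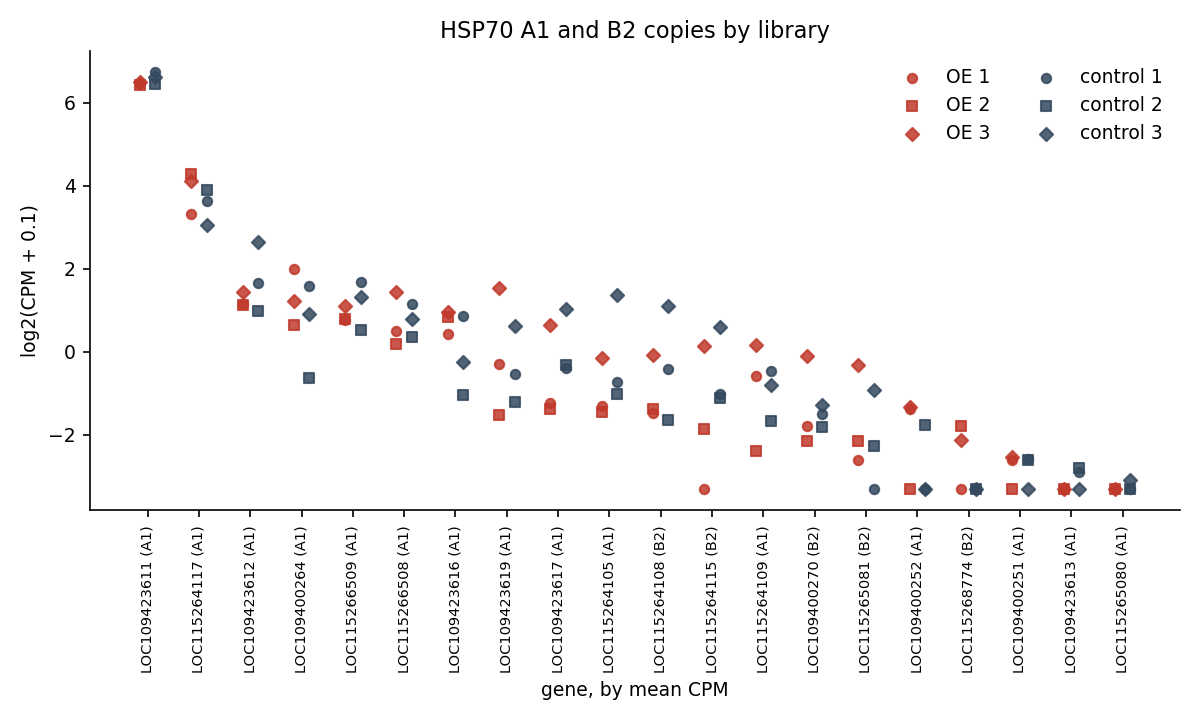
Log2(CPM + 0.1) of the 20 HSP70 A1 and B2 genes by library, ordered by mean CPM, OE in red left of control in dark blue. LOC109423611 stands above all others, and among the low copies the diamonds (OE 3 and control 3) are often the highest of their group.

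The HSP70 protein 4 genes, exchange factors of the HSP70 cycle, differed in sign, with 1 positive and 2 negative log2 fold changes. On scaffold NW_021838465.1, LOC109399561 (positions 45268946 to 45306230) had 504, 408 and 516 CPM with OE, against 431, 455 and 410 CPM in controls. LOC109400776 (positions 46525200 to 46559408) had 207, 297 and 232 CPM with OE, against 297, 287 and 281 CPM in controls. The first gene was high in OE libraries 1 and 3, and those are the libraries in which the second was low. LOC115254195 (positions 46430768 to 46472519) had 89.9, 103 and 78.1 CPM with OE, against 101, 114 and 116 CPM in controls, which gave a log2 fold change of -0.29 ± 0.10 (SE, edgeR adjusted p 0.963). The 3 together gave 811 ± 13.4 CPM with OE and 830 ± 24.5 CPM in controls (SD, n = 3 each), a log2 fold change of -0.03 ± 0.04 (SE). Over the 6 libraries the sum had a coefficient of variation of 2.49%, while single copies had 10.3% to 14.4%.

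Among the HSP90 genes, 2 carried most of the reads. LOC109411870 (scaffold NW_021838466.1, positions 3235332 to 3238786) stood at 1714 ± 124 CPM with OE and 1747 ± 21.7 CPM in controls, and LOC109412020 (scaffold NW_021837767.1, positions 1031671 to 1035423) at 1203 ± 13.5 and 1204 ± 35.2 CPM (SD, n = 3 each). The log2 fold change of LOC109412020 was -0.0014 ± 0.04 (SE). LOC109407918 (positions 4777323 to 4781149 of the first scaffold) had 244, 234 and 223 CPM with OE, against 204, 200 and 229 CPM in controls, and the groups overlapped by 1 library. LOC109407917 (positions 3255586 to 3270862 there) had 74.1, 122 and 123 CPM with OE, against 165, 119 and 128 CPM in controls. OE library 1 was the lowest and control 1 the highest. Its log2 fold change was -0.37 ± 0.20 (SE), -0.17 without OE library 1 and -0.22 without control 1. The sum over the 6 HSP90 genes differed by -0.02 ± 0.04 (SE) on the log2 scale.

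The DnaJ genes showed 22 positive and 13 negative log2 fold changes, with a median of 0.03. The most counts fell on 2 genes of subfamily A member 1, a general HSP70 partner: LOC115260727 had 931 ± 55.9 CPM with OE and 868 ± 56.6 CPM in controls, and LOC109427648 had 814 ± 9.18 and 814 ± 44.7 CPM (SD, n = 3 each). DnaJ C7, which links HSP70 and HSP90 in mammals, stood at 469 ± 11.7 CPM with OE and 462 ± 6.67 CPM in controls (LOC109427854). Its counts are whole numbers and its coefficient of variation over all libraries was 2.02%. DnaJ protein homolog 1 (LOC109402735), the main HSP40 name in flies, had 283, 339 and 266 CPM with OE, against 305, 316 and 317 CPM in controls, so OE library 2 was high and OE library 3 low around steady controls.

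LOC109420973, described as dnaJ homolog shv-like after the fly gene shriveled, was the DnaJ gene with an unadjusted p under 0.05 (scaffold NW_021839020.1, positions 69770309 to 69785790). It had 103, 84.9 and 86.9 CPM with OE, against 69.5, 74.8 and 83.2 CPM in controls. All OE libraries were higher, though OE library 2 exceeded control 3 by little. This is 0.27 ± 0.10 (SE) on the log2 scale, with an edgeR adjusted p of 0.963, or 0.18 without OE library 1. The other shv-like gene, LOC109428463, stood at 89.1 ± 7.24 CPM with OE and 87.2 ± 11.7 CPM in controls, and their sum of 181 ± 6.04 and 163 ± 11.1 CPM overlapped between groups (edgeR adjusted p 0.950). The lowest log2 fold change of a DnaJ gene with at least 5 CPM was that of mitochondrial DnaJ C30 (LOC109403286), at -0.12 ± 0.09 (SE), with 24.2 ± 0.0989 CPM with OE and 26.3 ± 1.19 CPM in controls.

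The CCT chaperonin, whose ring is built from the subunits alpha to theta, had no log2 fold change beyond 0.2 in any of its 15 genes. With copies summed, all 8 subunits stood at 329 to 506 CPM in both group means, and their log2 fold changes lay within 0.06 of 0. Subunit alpha gave 506 ± 13.4 CPM with OE and 500 ± 4.08 CPM in controls, and subunit eta 447 ± 1.10 and 442 ± 17.6 CPM (SD, n = 3 each). Subunit delta (LOC109411698) had 509, 465 and 495 CPM with OE, against 488, 477 and 476 CPM in controls. Subunit epsilon (LOC109402400) stood at 423 ± 29.1 and 422 ± 11 CPM. Subunit zeta (LOC109427321) had 364, 345 and 364 CPM with OE, against 375, 370 and 368 CPM in controls; the groups did not overlap, by a margin of a few CPM, and its edgeR adjusted p was 0.971. Among single copies, the lowest log2 fold change was that of an eta gene (LOC115261288), with 152 ± 5.74 CPM with OE and 167 ± 12.2 CPM in controls, and the highest that of a beta gene (LOC115254562), with 54.9 ± 4.58 and 50.3 ± 11.5 CPM. The median coefficient of variation over the subunits was 3.05%, beside 7.88% over all joined features. Those features include many with far fewer counts, where counting noise is larger, so the comparison is not at like depth.

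Most prefoldin genes had positive signs. Of 11 tested genes, 10 had a positive log2 fold change, with a median of 0.10, where 7834 of all 15540 genes were positive. The 11 include an unconventional prefoldin RPB5 interactor-like gene (LOC109409670), at 0.14 ± 0.09 (SE). Copies come from the same 6 libraries and may share reads, so these signs are not independent. LOC115269425, a subunit 3 gene (scaffold NW_021838554.1, positions 4823794 to 4824705), had 34.8, 34.1 and 34.5 CPM with OE, against 24.0, 32.2 and 28.7 CPM in controls. Every OE library was higher, at a log2 fold change of 0.28 ± 0.11 (SE, edgeR adjusted p 0.963), or 0.18 without control 1. Another subunit 3 gene of that scaffold, LOC115269446 (positions 7087727 to 7088767), had the opposite sign, at 9.72 ± 2.33 CPM with OE and 12.3 ± 5.23 CPM in controls. The most counts fell on a subunit 4 gene (LOC109399511), with 102 ± 1.35 CPM with OE and 98.8 ± 8.70 CPM in controls, a subunit 2 gene (LOC109420800), with 96.2 ± 3.21 and 89.8 ± 1.14 CPM, and a subunit 6 gene (LOC115262042), with 91.8 ± 6.03 and 84.4 ± 5.88 CPM (SD, n = 3 each). Of these the subunit 2 gene's groups did not overlap. The highest positive log2 fold change, 0.30 ± 0.20 (SE), was that of another subunit 6 gene (LOC109425814), with 13.2 ± 2.94 CPM with OE and 10.8 ± 1.97 CPM in controls. It was 0.10 without OE library 3, 0.19 without control 3 and 0.45 without control 1.

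With copies joined, prefoldin subunits 2 and 6 were the ones whose groups did not overlap. Subunit 2 had 171, 161 and 169 CPM with OE, against 153, 156 and 158 CPM in controls, a log2 fold change of 0.10 ± 0.04 (SE). Subunit 6 had 111, 100 and 104 CPM with OE, against 95.4, 89.9 and 100 CPM in controls, a log2 fold change of 0.14 ± 0.06 (SE). In subunit 6 the lowest OE library and the highest control were nearly equal. Both had an edgeR adjusted p of 0.950. Subunits 1, 3, 4 and 5 also had positive log2 fold changes, from 0.03 to 0.07, with overlap in each. Of the 45 joined chaperone features tested, none passed the adjusted limit, as 0.0103% of all joined features did. An unadjusted p under 0.05 was reached by 4 of the 45, where 5.06% of all joined features reached it. At that limit 3 of the 45 were higher with OE, where 2.52% of all joined features were. Both shares are above those of all joined features but rest on only 4 features. The groups did not overlap in 5, where 10.7% of all joined features were such, and OE was the higher group in 3, where 5.4% were.

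Copies of a gene mostly varied more than their sum. Among genes with at least 5 CPM, the 17 chaperone genes with whole-number counts had a median coefficient of variation of 4.55% over the 6 libraries, and the 56 with decimals had 9.69%; over all genes these were 6.01% and 10.2%. In 16 of 21 chaperone names with at least 2 such copies, the sum varied less than every single copy, which is 76.2%, beside 74.6% of all such names. In CCT subunit beta the 4 copies had 10.3% to 17.0% and their sum 4.06%. DnaJ C2, a ribosome-bound co-chaperone, had 9.09% and 11% for its copies and 2.28% for the sum. Of the 104 gene IDs, 56 (53.8%) are also listed in the later RefSeq annotation of assembly AalbF5, beside 54.2% of all genes. For CCT this left exactly 8 of 15 IDs, 1 for each subunit, and for HSP70 11 of 30.

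**Figure D5:**
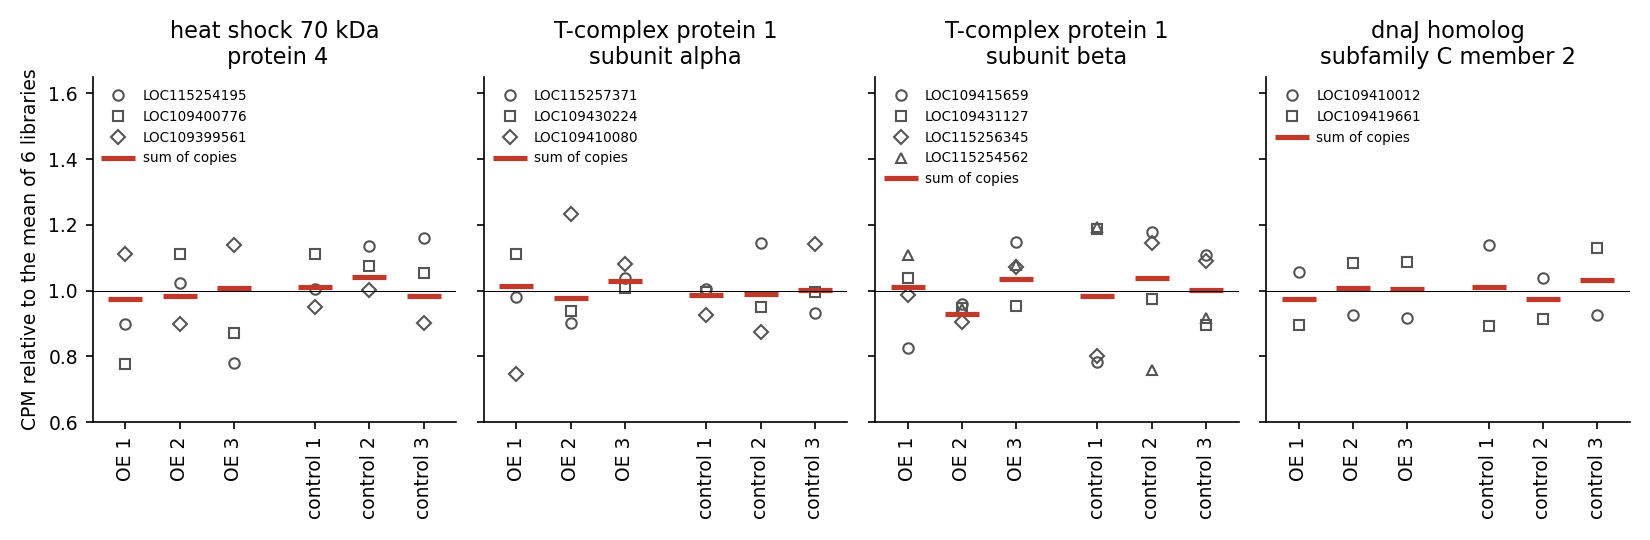
CPM of each copy (grey symbols) and of the sum of copies (red bars), divided by its own mean over the 6 libraries, for HSP70 protein 4, CCT subunits alpha and beta, and DnaJ C2; OE libraries are left of controls. Copies spread around the sum, which stays near 1 (coefficients of variation of the sums 2.49%, 1.90%, 4.06% and 2.28%).

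The partners of these chaperones were taken from a list of co-chaperones and heat shock regulators by description, which found 49 genes and had 46 tested. It also caught a few unrelated names that contain p23. None passed the adjusted limit by edgeR or DESeq2. An unadjusted p under 0.05 was reached by 3 genes (6.52%), 2 higher and 1 lower with OE, beside 4.92% of all genes (2.42% higher and 2.5% lower). The groups did not overlap in 7 (15.2%), beside 10.4% of all genes. OE was the higher group in 2 of the 7, where 5.25% of all genes were such, and the lower in 5, where 5.12% were. The median log2 fold change was 0.02. The sum was 4214 ± 70.7 CPM with OE and 4220 ± 50.2 CPM in controls (SD, n = 3 each).

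Stress-induced-phosphoprotein 1 (LOC109407834), which carries clients between HSP70 and HSP90, stood at 428 ± 18.6 CPM with OE and 424 ± 16.8 CPM in controls. The partner of the mitochondrial chaperonin, a 10 kDa heat shock protein gene (LOC109410391), had 387, 396 and 438 CPM with OE, against 385, 374 and 379 CPM in controls; OE libraries were higher throughout, with an edgeR adjusted p of 0.963. Endoplasmin (LOC109396991), the HSP90 of the endoplasmic reticulum, stood at 611 ± 29.9 and 648 ± 40.2 CPM. An HSC70-interacting protein gene (LOC109430137), which holds HSP70 in its client-bound state, had 73.8, 74.0 and 78.5 CPM with OE, against 87.0, 81.6 and 86.0 CPM in controls, which gave a log2 fold change of -0.17 ± 0.06 (SE, edgeR adjusted p 0.963). The other gene of that description, LOC109433559, stood at 113 ± 4.05 CPM with OE and 113 ± 0.517 CPM in controls, and the log2 fold change of the sum of both was -0.07. Tubulin-specific chaperone cofactor E-like protein (LOC109424545) had 25.7, 25.5 and 25.8 CPM with OE, against 19.5, 22.1 and 23.6 CPM in controls, with an edgeR adjusted p of 0.963. SIL1-like (LOC115264146), an exchange factor of the endoplasmic reticulum, averaged only 1.15 ± 0.582 CPM with OE and 0.478 ± 0.161 CPM in controls, and the groups overlapped.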

How the data were processed

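Estimated counts, 1 column per library and 1 row per gene, are what the authors deposited; they carry decimals and differ in total between libraries. The submitters' processing notes name HISAT and Bowtie2 without a role; no counting program, genome build or use of strand is stated in the sources used here. Scaffold positions are those of the table. Of 34479 rows, 10950 hold no value for any library and were dropped. Columns of no sample numbered 0. Estimated counts were rounded, filtered with filterByExpr and scaled by TMM in edgeR 4.0.16 (R 4.3.3), then tested with the quasi-likelihood test of OE against control over all genes, with Benjamini-Hochberg adjustment at 0.05. Alternatives were DESeq2 1.42.0, DESeq2 size factors, library totals alone, no filter, a replicate block, each library left out and counts summed over one description; joining copies whose descriptions differ by "-like" or "probable" was added after seeing the data. SEs are the fold change over the square root of F. The chaperone genes and lists were chosen with earlier results of these data known. Named genes are those with an unadjusted p under 0.05, the 3 with most counts and the largest rise and fall at 5 CPM or more per subfamily; other genes were named after their values were seen. Recovery of known fold changes was checked with simulated counts. The library pairs differed by more than counting noise (chi-square per degree of freedom at least 4.26). Each library was counted once, though such a difference does not show that libraries came from separate females or pools.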

Additional observations from a re-analysis of the deposited data

How the results depend on the processing

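No chaperone and no co-chaperone gene passed the adjusted limit in any setting run. Over all genes 2 passed, 15 with the DESeq2 Wald test, 1 with counts summed over one description, 1 with copies joined, 0 with the replicate block and 0 to 2 with 1 library left out. Same-numbered libraries did not deviate together (correlations -0.012, 0.038 and -0.0052) over all genes tested, so the libraries were not treated as pairs. In the low HSP70 A1 and B2 genes, library 3 was often the highest of both groups, a count made after the values were seen. Each summed subfamily level stayed within 1 SD under the other scalings and with any 1 library left out. LOC115256412, LOC115269375, LOC109420973 and LOC115269425 kept their direction in all 12 settings. Their groups did not overlap, so leaving out 1 library could hardly turn it. Other named genes kept theirs too, among them LOC109427854 and LOC109396991, whose groups overlapped. When summed over one description, direction turned for LOC115254195 (0.063), LOC115264117 (-0.079), LOC109407918 (-0.028), LOC109427648 (0.049), LOC115254562 (-0.0064), LOC115261288 (0.016), LOC115269446 (0.12). With copies joined it turned for LOC109399561 (-0.033), LOC115264117 (-0.071), LOC109407918 (-0.018), LOC109427648 (0.049), LOC115254562 (-0.024), LOC115261288 (0.016), LOC115269446 (0.056). In both, the value is that of a sum of copies. Without the filter it turned for LOC109412020 (0.0014), LOC109427648 (0.0019), and with the block for LOC109427648 (0.00043). Leaving out 1 library turned the direction of LOC109425568 (-0.069 to 0.016), LOC109429441 (-0.21 to 0.030), LOC109411870 (-0.076 to 0.027), LOC109412020 (-0.026 to 0.017), LOC109427648 (-0.044 to 0.036), LOC109411698 (-0.0022 to 0.063), LOC109402400 (-0.054 to 0.032), LOC115254562 (-0.013 to 0.32), LOC109399511 (-0.024 to 0.086), LOC115269446 (-0.60 to 0.018), LOC109407834 (-0.024 to 0.036). It moved the value by over 1.5 times, with no change of sign, for LOC109396991 (-0.13 to -0.034), LOC109399561 (0.078 to 0.24), LOC109407917 (-0.49 to -0.17), LOC109410391 (0.047 to 0.14), LOC109420973 (0.18 to 0.34), LOC109425814 (0.10 to 0.45), LOC109427321 (-0.067 to -0.028), LOC109427854 (0.0018 to 0.034), LOC115260727 (0.068 to 0.16), LOC115261288 (-0.18 to -0.077), LOC115262042 (0.067 to 0.18), LOC115264117 (0.19 to 0.64), LOC115269425 (0.18 to 0.39). For the other changes the cause was not tested. Among genes under 3 CPM, SEs reach 0.84; that gene (LOC109423619) varied by 95.4% between libraries, where counting alone gives 24.8%.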

Other observations

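The 2 T-complex protein 11-like genes caught by the wording summed to 100 ± 3.21 CPM with OE and 96.4 ± 3.98 CPM in controls (SD, n = 3 each). Summed germline markers gave 9084 to 9441 CPM with OE and 8971 to 9238 CPM in controls. Haemocyte markers gave 654 to 662 CPM with OE and 640 to 685 CPM in controls. Fat body markers gave 60.1 CPM in OE library 1 and 9.0 to 10.1 CPM in the other OE libraries, against 9.34 to 13.0 CPM in controls. No marker gene passed the edgeR adjusted limit.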
